A study of Mus musculus with 292 samples.

Results

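Paip1-low mice were F2 mice chosen by the measured level of Paip1 in brain RNA: their log10 ratio was under -0.33 on the Paip1 probe with the larger SD, which is a level under 0.468 of the common pool. There were 65 such mice among 292, and the other 227 are called Paip1-high. The split asked which other genes differ between brains with low Paip1 and the rest, and whether those genes lie on chromosome 13, where Paip1 lies. All mice of both groups are the F2 offspring of a cross between C57BL/6J and C3H/HeJ mice, made in both directions, and females and males were included. They were fed chow (4% fat) up to week 8, then a Western diet (42% fat, 0.15% cholesterol) during 12 weeks, so that brains were taken at 20 weeks of age following 12 h without food. Each brain was measured on 1 array against a pool of equal portions of RNA from the samples, so each value is a ratio that carries the error of a single array. It was read as log10 of mouse over pool, which the sources do not state: with the sign turned, the low mice would be those with the highest Paip1. The sex, cross direction and genotype of single mice were not used here. Low and high describe the Paip1 probe alone, and both groups mix sexes and cross directions to an unknown degree.

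Paip1 encodes a partner of the poly(A)-binding protein. It connects the tail of a messenger RNA with initiation factors and stimulates translation. Its neighbour Nnt encodes nicotinamide nucleotide transhydrogenase, an enzyme of the inner mitochondrial membrane that uses the proton gradient to make NADPH, which mitochondria need for peroxide removal. C57BL/6J is known to carry a deletion inside Nnt, and where the Nnt probe lies relative to it was not examined. In an F2 intercross, genes on the same chromosome are inherited together over long stretches, so alleles far from a chosen gene still travel with it.

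The group-setting probe had an SD of 0.335 over all mice. Its values ran from -1.01 through a median of -0.723 to -0.365 in Paip1-low mice, against -0.277, 0.00815 and 0.346 in Paip1-high mice. The groups do not overlap because this probe set them, and the 5.48-fold distance between their means is a description with no test. The threshold fell in a sparse stretch: the low mice nearest to it stood at -0.365 and -0.425, and the high mice nearest to it at -0.277, -0.211 and -0.184. The low mice made up 22.3% of all mice (95% Wilson interval 17.9 to 27.4%), 19.2% of the 151 mice numbered up to 212 and 25.5% of the 141 mice numbered from 213.

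The low level itself differed between sets of arrays. Of the mice numbered up to 212, those with 1 spelling of the description are called batch A and those with the other batch B, and mice from 213 are batch C. The low mice had a median of -0.544 in batch A (n = 13), -0.517 in batch B (n = 16) and -0.839 in batch C (n = 36). The lowest low mouse of batches A and B stood at -0.686 and the highest low mouse of batch C at -0.653, so the low levels of the earlier and later mice hardly overlapped. High mice had medians of 0.0301, 0.0356 and -0.0136 in batches A, B and C. Within the high group 12 mice lay between -0.2 and -0.1, 96 between -0.1 and 0, 51 between 0 and 0.1, 28 between 0.1 and 0.2 and 32 between 0.2 and 0.3.

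A second probe of Paip1 did not follow the first. It ran from -0.257 through -0.0424 to 0.232 in Paip1-low mice, against -0.219, -0.00851 and 0.123 in Paip1-high mice, with means of -0.0255 ± 0.0972 (SD, n = 65) and -0.0168 ± 0.063 (SD, n = 227). Its groups overlapped almost entirely, and 0 mice were under the threshold on it. The split is therefore that of 1 probe, and the level of all Paip1 transcripts in these groups is not settled by it. Where the probes lie in the transcript was not examined.

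**Figure D1:**
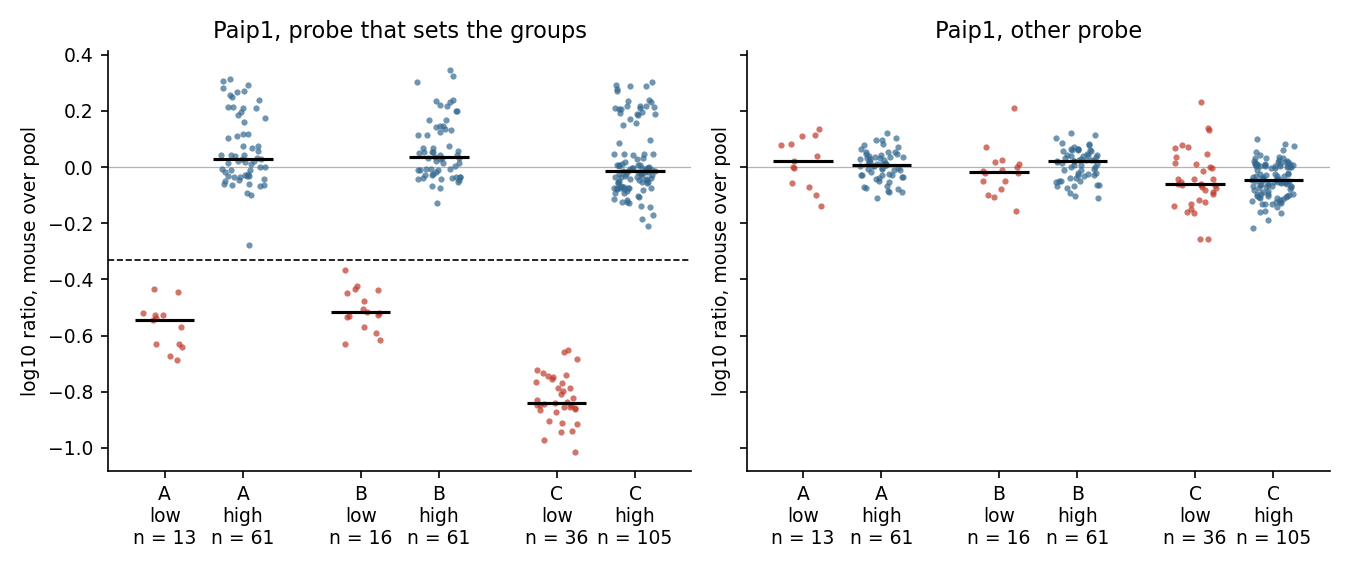
Log10 ratio of mouse to pool for the 2 Paip1 probes, with 1 point per mouse, batches A, B and C along the axis, Paip1-low mice (red) left of Paip1-high mice (blue), bars at medians and the threshold of -0.33 dashed. On the left the low mice of batch C lie around -0.839, below those of batches A and B at -0.544 and -0.517, while on the right both groups of every batch lie around 0.

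The sequences before the transcription starts of Paip1 and of Tmem267, the next measured gene after it, are shown because Tmem267 was higher in the mice in which the Paip1 probe was low. They are the 250 bases before the most upstream start listed by RefSeq, on build GRCm38.p6, which is the C57BL/6J genome, read 5′ to 3′ on the plus strand. Capitals mark matches to the GC box GGGCGG on either strand. The Paip1 stretch is chr13:119428350-119428599 and the Tmem267 stretch is chr13:119487836-119488085.
Paip1: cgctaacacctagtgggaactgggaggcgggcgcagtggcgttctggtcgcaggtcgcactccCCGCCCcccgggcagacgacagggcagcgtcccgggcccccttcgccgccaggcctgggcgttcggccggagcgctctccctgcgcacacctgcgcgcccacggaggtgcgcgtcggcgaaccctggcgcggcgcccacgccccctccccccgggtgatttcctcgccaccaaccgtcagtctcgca
Tmem267: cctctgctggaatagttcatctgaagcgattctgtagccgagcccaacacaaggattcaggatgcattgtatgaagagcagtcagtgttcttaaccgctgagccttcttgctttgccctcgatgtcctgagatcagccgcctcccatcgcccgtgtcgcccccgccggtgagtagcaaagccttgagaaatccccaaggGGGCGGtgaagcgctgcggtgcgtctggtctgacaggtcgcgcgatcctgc
Each stretch held 1 GC box, 0 CCAAT boxes (CCAAT) and 0 TATA boxes (TATAAA), all searched on both strands. These letters occur in 32.7%, 33.8% and 12.4% of the 32851 stretches of 250 bases in the same table. The G and C share was 74.8% for Paip1 and 58% for Tmem267. A match is only a run of letters, and the C3H/HeJ sequence was not used here.

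Between Paip1-low and Paip1-high mice, 39 of 23547 probes differed, and every named gene among them except 1 lay on chromosome 13. Differences were tested with limma on the log10 ratios, with the block of mouse numbers (up to 212, from 213) as a covariate, and a probe was called at a Benjamini-Hochberg adjusted p under 0.05 over all probes. The calls made up 0.166% of all probes, 0.0807% being higher and 0.0849% lower in Paip1-low mice. On chromosome 13 the share was 4.99%, or 24 of 481 probes, and these belonged to 23 of 411 genes: 11 were higher and 12 were lower in Paip1-low mice. Of 12162 probes of named genes on other chromosomes 1 was called, and of 10904 probes with no mapped gene 14 were. The called chromosome 13 probes differed by 1.06-fold to 1.45-fold, and 6 of them reached 1.2-fold.

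The called genes lay towards the end of chromosome 13 at which Paip1 stands, counted by gene order in the mouse gene table. Paip1 is number 407 of the 412 measured genes, with only 5 measured genes after it. Among the 55 genes within 50 places of Paip1, 10 were called, among the 50 genes at 51 to 100 places 11 were, and among the 50 at 101 to 150 places 2 were. Of the genes farther away 0 were called by limma (24 probes had an unadjusted p under 0.05), and the farthest called gene, Zfp273, stood 132 places before Paip1. The share of probes with an unadjusted p under 0.05 was 29.3%, 30.8% and 17.5% in the first 3 ranges, 12.9% at 151 to 200 places, 5.41% at 201 to 300 and 7.81% beyond 300, beside 8.61% for named genes off the chromosome. The share of small p-values was thus highest in the 2 ranges nearest to Paip1.

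**Figure D2:**
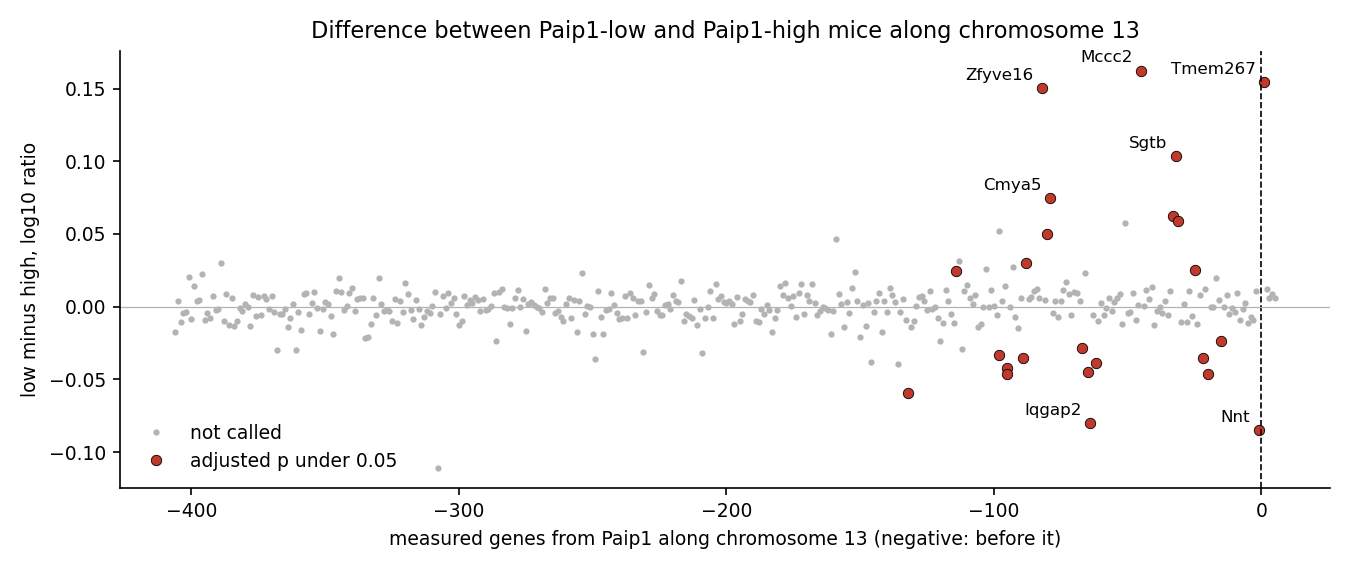
Difference of Paip1-low minus Paip1-high mice in log10 ratio for each measured gene of chromosome 13, against its place in gene order from Paip1 (0), with called probes in red and named where the difference exceeds 0.07 either way. All 24 called probes lie within 132 places of Paip1, on both sides of the zero line.

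Both genes next to Paip1 differed, in opposite directions. Tmem267, which encodes a membrane protein, ran from -0.135 through 0.0563 to 0.367 in Paip1-low mice, against -0.356, -0.0472 and 0.231 in Paip1-high mice. The ranges overlapped widely, but 58 of 65 low mice were above the median of the high mice. The difference was 0.154 ± 0.0169 (SE), or 1.43-fold higher in Paip1-low mice (limma adjusted p = 8.7e-14). Nnt ran from -0.229 through -0.0532 to 0.187 in Paip1-low mice, against -0.126, 0.0545 and 0.227 in Paip1-high mice. It was 1.22-fold lower in Paip1-low mice (-0.0852 ± 0.00942, SE; limma adjusted p = 1.07e-13), with 44 of 65 low mice below the median of the high mice. In bulk brain RNA, fewer cells of a type and less RNA per cell cannot be told apart.

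Most other near neighbours had small differences. Of the 15 nearest measured genes (10 before and 5 after Paip1), 2 were called, and the differences of the other 13 lay between -0.0112 and 0.0123 with adjusted p of at least 0.468. Fgf10, a fibroblast growth factor gene, stood at 0.0107 and Pelo, a ribosome rescue factor gene, at -0.0112, and these were the 2 of the 13 with an unadjusted p under 0.05. Ccl28, a chemokine gene, stood at 0.0123, Ndufs4, a complex I subunit gene, at 0.00939, Emb, a gene for the cell adhesion protein embigin, at -0.00945, and Isl1, a homeobox gene of neuron specification, at -0.00692. Fst, the activin antagonist follistatin, stood at -0.00891, Mocs2, of molybdenum cofactor synthesis, at -0.00169, the integrin gene Itga2 at 0.00224 and Arl15 at -0.00397. After Ccl28 the order ended with Tcstv1 (0.00621), BC147527 (0.0085) and Tcstv3 (0.0057).

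**Figure D3:**
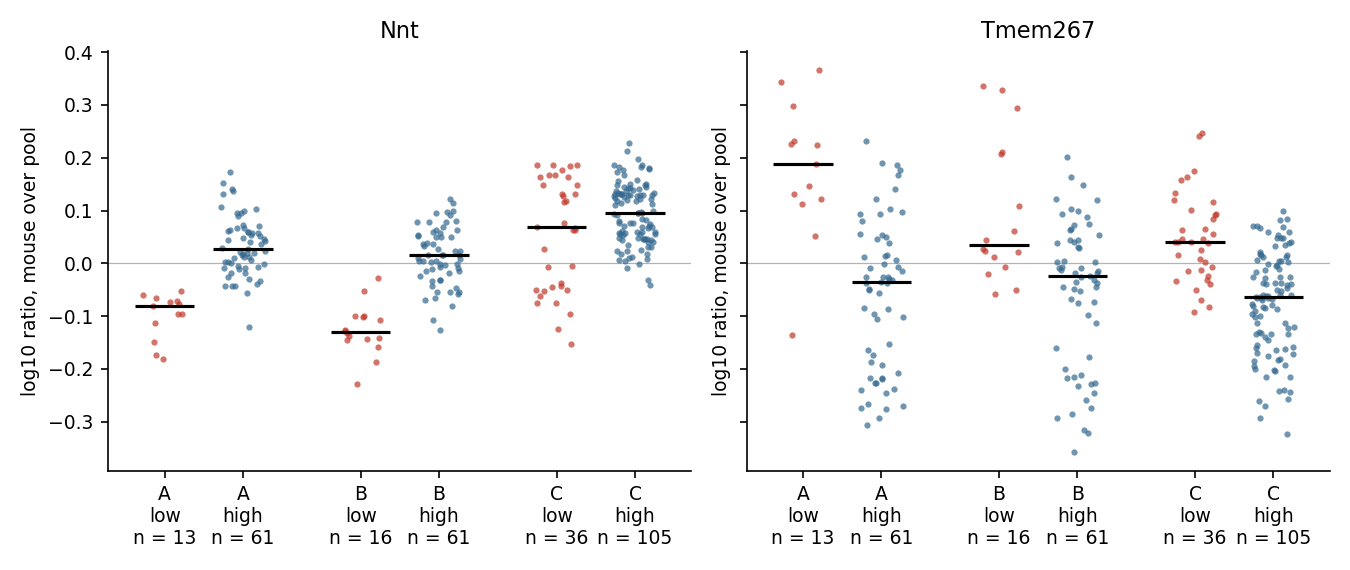
Log10 ratio of mouse to pool for Nnt (left) and Tmem267 (right), 1 point per mouse, by batch, with Paip1-low mice (red) left of Paip1-high mice (blue) and bars at medians. Nnt medians are -0.0815 against 0.0278 in batch A, -0.13 against 0.0153 in batch B and 0.0686 against 0.0952 in batch C, and Tmem267 is higher in the low mice of each batch.

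The other called genes are given by role, a grouping made after the values were seen. Among genes of metabolism, Mccc2 had the largest difference of all called genes. It encodes a subunit of methylcrotonyl-CoA carboxylase, which breaks down leucine in mitochondria. Its values ran from -0.378 through 0.149 to 0.331 in Paip1-low mice, against -0.562, -0.0104 and 0.273 in Paip1-high mice. It was 1.45-fold higher in Paip1-low mice (0.162 ± 0.0248, SE; limma adjusted p = 7.58e-07), and 52 of 65 low mice were above the high median. Ndufaf2, an assembly factor of respiratory complex I, was 1.06-fold higher (0.0252 ± 0.00555, adjusted p = 0.00626). Gene products of mitochondria were thus found in both directions, with Nnt lower and Mccc2 and Ndufaf2 higher.

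Of the called genes with a role in signalling, Iqgap2 had the smallest p. Iqgap2, a scaffold of small GTPases and the actin skeleton, ran from -0.243 through -0.0273 to 0.182 in Paip1-low mice, against -0.234, 0.0615 and 0.244 in Paip1-high mice. It was 1.2-fold lower (-0.0802 ± 0.0116, SE; limma adjusted p = 1.21e-07), and 52 of 65 low mice were below the high median. Map3k1, a kinase at the head of a stress cascade, ran from -0.241 through -0.0801 to 0.0825 in Paip1-low mice, against -0.217, -0.0214 and 0.137 in Paip1-high mice, and was 1.11-fold lower (adjusted p = 7.58e-07). F2r, the thrombin receptor gene, was 1.11-fold lower (adjusted p = 0.000365), as was Plk2, an activity-regulated kinase gene of synapses, by 1.09-fold (adjusted p = 0.0125). Adgrv1, a large adhesion receptor gene, was 1.08-fold lower on its called probe (adjusted p = 0.0397), but its other probe, which varied more, stood at 0.0517 and was not called (adjusted p = 0.542). Adgrv1 therefore has no settled direction.

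Of 4 called genes of protein handling and membrane traffic, 3 were higher. Zfyve16, an endosomal protein gene, ran from -0.441 through 0.159 to 0.324 in Paip1-low mice, against -0.509, 0.0156 and 0.335 in Paip1-high mice. It was 1.41-fold higher in Paip1-low mice (0.15 ± 0.0273, SE; limma adjusted p = 0.000136), with 50 of 65 low mice above the high median. Sgtb, a co-chaperone gene expressed in brain, ran from -0.301 through 0.113 to 0.289 in Paip1-low mice, against -0.364, 0.00212 and 0.267 in Paip1-high mice, and was 1.27-fold higher (adjusted p = 3.11e-05). Atg10, an enzyme of autophagosome formation, was 1.07-fold higher (adjusted p = 0.0147). Atp6ap1l, a gene related to an accessory subunit of the proton pump, was 1.09-fold lower (adjusted p = 0.00743).

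Genes of secreted peptides, synapses and matrix were split. Nln, the neuropeptide-cleaving enzyme neurolysin, was 1.15-fold higher in Paip1-low mice (0.0622 ± 0.0115, SE; limma adjusted p = 0.000191). Crhbp, which encodes the binding protein of corticotropin-releasing hormone, was 1.07-fold lower (-0.0285 ± 0.00618, adjusted p = 0.00505), and Sv2c, a synaptic vesicle glycoprotein gene, 1.09-fold lower (adjusted p = 0.00279). Thbs4, a thrombospondin gene of the extracellular matrix, was 1.12-fold higher (adjusted p = 0.033). Gzmk, a protease gene of cytotoxic lymphocytes, was 1.06-fold lower (-0.0233 ± 0.00416, adjusted p = 8.91e-05) with 52 of 65 low mice below the high median. Cmya5, a gene best known from striated muscle, was 1.19-fold higher (0.0746 ± 0.0137, adjusted p = 0.000156).

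The remaining called genes act in the nucleus and at chromosomes. Cenpk, a kinetochore gene, was 1.15-fold higher in Paip1-low mice (0.0588 ± 0.00924, SE; limma adjusted p = 1.99e-06), with 55 of 65 low mice above the high median. Trip13, an ATPase gene of the meiotic and mitotic checkpoint, was 1.06-fold higher (adjusted p = 0.0455). Ccnh, the cyclin subunit of the CDK-activating kinase, was 1.11-fold lower (-0.0465 ± 0.00856, adjusted p = 0.000167), and its second probe was called as well (-0.0424, adjusted p = 0.000471). Of the 22 called chromosome 13 genes represented by their most variable probe, 2 had another probe, and its sign was the same in both. Only Ccnh was called on that other probe. Adgrv1, called on its less variable probe, is not among the 22, and its probes had opposite signs. The zinc finger gene Zfp273 was 1.15-fold lower (adjusted p = 0.0044), and near-identical relatives of such genes could share its probe, which was not tested. Thbs4, Trip13 and Adgrv1 fall outside the rule for naming and complete the called genes of the chromosome.

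Some of the called genes came in short runs of 1 direction along the chromosome. Nln, Sgtb and Cenpk, which stand 33, 32 and 31 places before Paip1 with no measured gene between them, were all higher in Paip1-low mice. Zfyve16, Thbs4 and Cmya5, at 82, 80 and 79 places, were all higher too. Crhbp, F2r, Iqgap2 and Sv2c, at 67, 65, 64 and 62 places, were all lower, as were Plk2 and Map3k1 at 22 and 20 places. Direct neighbours in gene order also went opposite ways, namely Atp6ap1l (lower, 89 places) and Atg10 (higher, 88 places). These runs were picked out after the values were seen and have no test.

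The called genes were also fitted within each block of mice. They were selected by the fit over both blocks, so their signs and small p-values within the blocks are partly set by that selection and are given as a description. Of the 22 called chromosome 13 genes represented by their most variable probe, 22 had the same sign among mice up to 212 (29 low, 122 high) and 22 among mice from 213 (36 low, 105 high). Within the block up to 212, limma called 3 of them (Nnt, Tmem267 and Gzmk), beside 0.0382% of all probes, and 16 had an unadjusted p under 0.05. Within the block from 213 it called 17, beside 0.144% of all probes, and 22 had an unadjusted p under 0.05. Mccc2 differed by 0.102 ± 0.0308 in the earlier block and 0.215 ± 0.0379 in the later, and Iqgap2 by -0.0624 ± 0.0178 and -0.0959 ± 0.0149 (SE). Apart from Nnt, the difference between blocks passed for no probe.

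**Figure D4:**
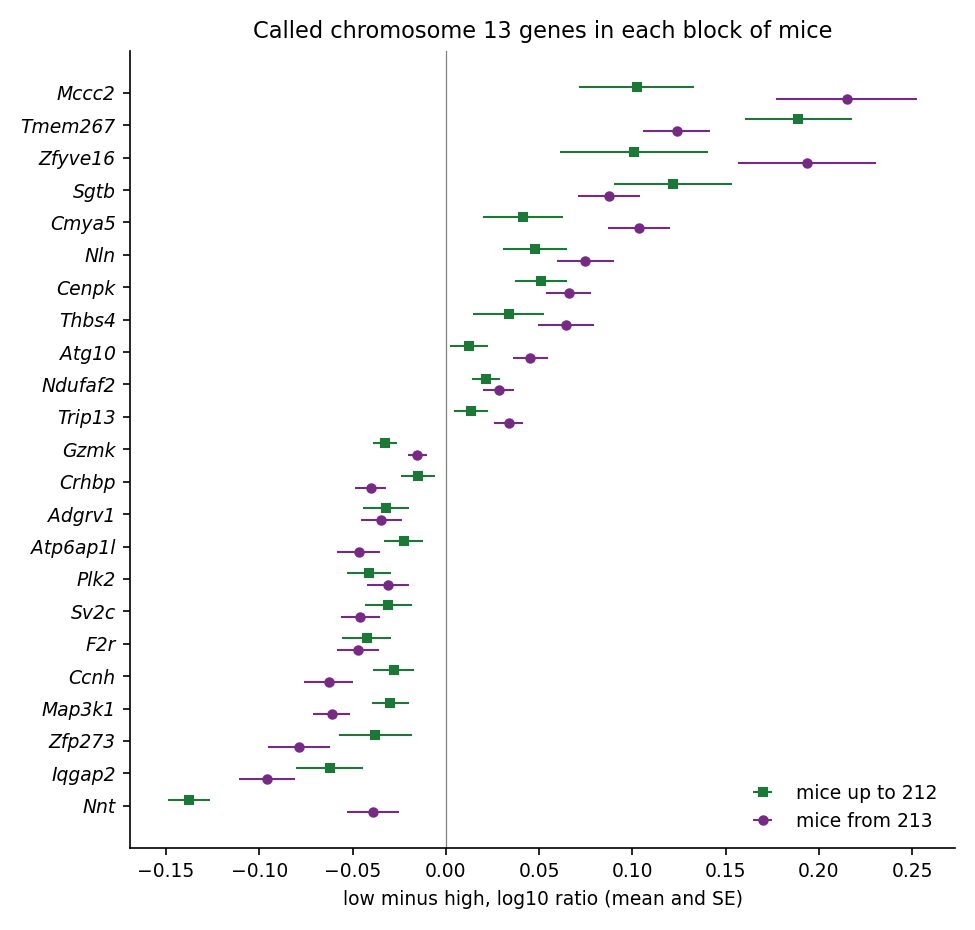
Difference of Paip1-low minus Paip1-high mice in log10 ratio (point, with its SE as bar) for the 23 called chromosome 13 genes, fitted apart in mice numbered up to 212 (green squares) and from 213 (purple circles). Each gene keeps its sign in both blocks, and the blocks lie farthest apart relative to their SE for Nnt, at -0.138 and -0.0391.

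Nnt was the 1 probe whose difference between blocks passed the threshold. It was 1.37-fold lower in Paip1-low mice up to 212 (-0.138 ± 0.0112, SE; limma adjusted p = 4.12e-20), against -0.0391 ± 0.0139 in mice from 213 (adjusted p = 0.709), and the interaction term was 0.0987 ± 0.018 (adjusted p = 0.00217). It was 1 call among 23547 probes, or 0.00425%, with 283 probes at an unadjusted p under 0.05. In batch A the low mice lay between -0.181 and -0.0532, with a median of -0.0815, against -0.12, 0.0278 and 0.174 as lowest, median and highest of the high mice. In batch B they lay between -0.229 and -0.0269, with a median of -0.13, against -0.126, 0.0153 and 0.121. In batch C the low mice spread from -0.152 through 0.0686 to 0.187, against -0.0409, 0.0952 and 0.227 in the high mice, and their SD was 0.106, against 0.0572.

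The wide spread of Nnt in the later low mice followed the mouse number. All 14 low mice numbered 216 to 271 lay between 0.116 and 0.187 (median 0.165), against 0.0529 to 0.227 (median 0.131) in the 43 high mice of that range. The 22 low mice numbered 276 to 360 lay between -0.152 and 0.163 (median -0.0401), against -0.0409 to 0.212 (median 0.0584) in the 62 high mice numbered 272 to 362. Fitted apart with limma, the difference was 0.0327 ± 0.0117 (SE, adjusted p = 0.999) in mice 213 to 271 and -0.083 ± 0.0159 (adjusted p = 0.00558) in mice from 272. The unadjusted limma p in mice 213 to 271 was 0.00718, with the low mice higher. Without mice 213 to 271 the overall Nnt difference was -0.115 ± 0.00939 (adjusted p = 4.45e-23). The ranges were chosen after these values were seen, so the fits describe them and are no independent evidence. Tmem267 was higher in the low mice of both ranges, by 0.104 ± 0.0233 in mice 213 to 271 and 0.136 ± 0.0253 in mice from 272.

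**Figure D5:**
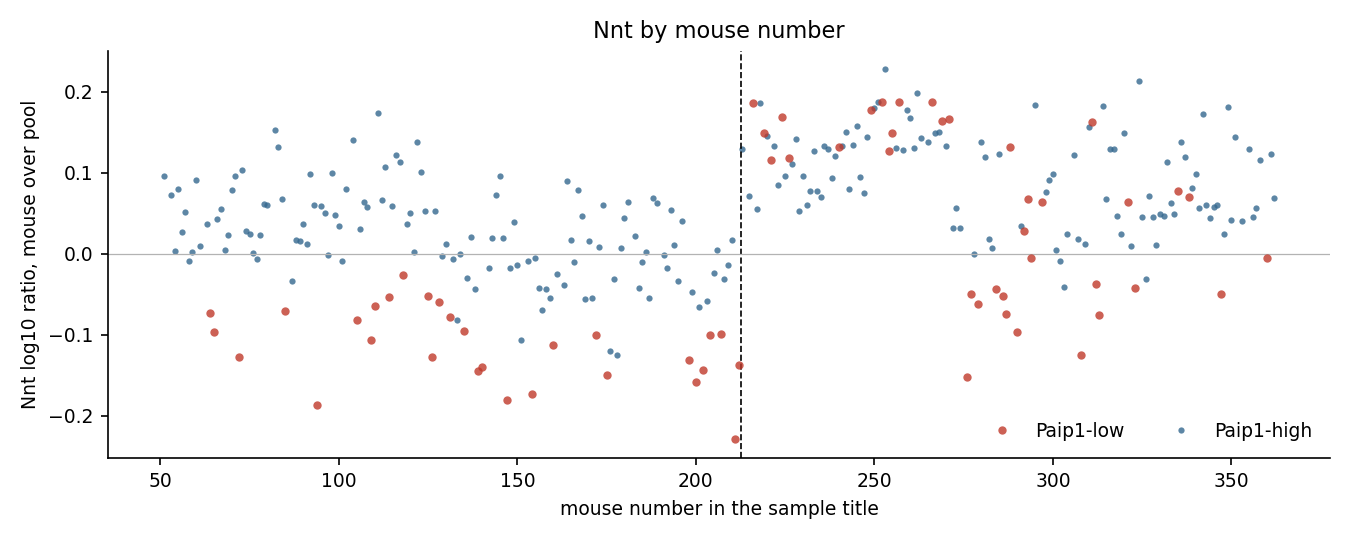
Nnt log10 ratio of mouse to pool against the mouse number of the sample title, with Paip1-low mice in red and Paip1-high mice in blue, and a dashed line between numbers 212 and 213. Low mice lie mostly under the high mice up to 212 and from 272, but among them (0.116 to 0.187) from 213 to 271.

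Among Paip1-high mice alone, which the threshold does not divide, 15 of the 22 chromosome 13 genes above had a slope on the Paip1 level that passed the test, on a background of many other probes. The slope of each probe on the Paip1 log10 ratio was fitted with limma in the 227 high mice with the block as covariate, and 5556 probes (23.6%) were called. All 22 genes, called or not, had the sign that continues the low-to-high difference. The slope uses the Paip1 probe that set the groups, and the genes were selected by a fit that included these high mice. The signs are therefore a description and no independent evidence, and the share of such signs over all probes was not counted. The background differed between blocks: 6074 probes (25.8%) were called in high mice up to 212 and 121 probes (0.514%) in those from 213, and 8 of the 22 genes were called in each block. In the earlier block that is 8 of 22 beside 25.8% of all probes. In the later block the slope per unit of log10 ratio was -0.51 ± 0.0571 for Tmem267 (adjusted p = 3.37e-10), 0.2 ± 0.0354 for Map3k1 (adjusted p = 0.00108), 0.2 ± 0.039 for Plk2 (adjusted p = 0.0063) and -0.302 ± 0.0648 for Sgtb (adjusted p = 0.0182). For Nnt it was 0.115 ± 0.0432 (adjusted p = 0.172) there and 0.361 ± 0.0294 (adjusted p = 1.04e-18) in high mice up to 212. With arrays centred and scaled, 4779 probes were called over both blocks, and what the many slopes of the earlier block share was not tested.

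Off chromosome 13, Trim25 was the 1 named gene called. Trim25, on chromosome 11, encodes a ubiquitin ligase that activates the RNA sensor RIG-I. It ran from -0.179 through 0.0257 to 0.108 in Paip1-low mice, against -0.14, -0.0105 and 0.247 in Paip1-high mice. It was 1.08-fold higher in Paip1-low mice (0.0341 ± 0.00724, SE; limma adjusted p = 0.00358), with 54 of 65 low mice above the high median. The difference was 0.0415 ± 0.00963 in mice from 213 (adjusted p = 0.0278) and 0.0256 ± 0.0108 in mice up to 212 (adjusted p = 0.978). In all, 1047 probes of named genes off the chromosome had an unadjusted p under 0.05.

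The strongest difference of all was that of a probe with no mapped gene. Probe 10024403640 ran from 0.00698 through 0.068 to 0.157 in Paip1-low mice, against -0.189, -0.00539 and 0.0778 in Paip1-high mice. All 65 low mice were above the median of the high mice and 25 were above their highest, at a difference of 0.0922 ± 0.0066, or 1.24-fold (SE; limma adjusted p = 5.79e-30). Probe 10024409065 was 1.49-fold lower in Paip1-low mice (-0.172 ± 0.0183, adjusted p = 2.33e-14), the widest difference of all called probes. Both were called in each block as well. The 14 unnamed probes were 7 higher and 7 lower, and their chromosomes are not known here.

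Counts in the pathway lists are to be set beside the shares over all probes, of which 0.166% were called and 8.98% had an unadjusted p under 0.05. At those shares lists of this size can be without a call, so counts of 0 say little about the lists. Of 28 measured genes of poly(A)-binding proteins and initiation factors (39 listed), 0 were called by limma and 2 had an unadjusted p under 0.05, with a median difference of -0.0036, beside 0.000746 over all probes. Eif4ebp2, a repressor of the cap-binding factor, had the smallest p, at -0.0272 (adjusted p = 0.533). Of 14 measured genes of poly(A) tails and mRNA decay (26 listed), 0 were called and 3 had an unadjusted p under 0.05, with a median of -0.00633, and the termination factor gene Gspt1 stood first at -0.0167 (adjusted p = 0.535). Of 16 measured genes of mitochondrial NADPH and peroxide defence (21 listed), 1 was called, Nnt itself, and it was also the only one with an unadjusted p under 0.05, with a median of -0.00606.

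Markers of brain cell types, and of tissues that a brain sample could hold, were read beside the same shares over all probes, 0.166% called and 8.98% at an unadjusted p under 0.05. Of 55 measured markers in 8 lists (neurons, astrocytes, oligodendrocytes, microglia, endothelium, choroid plexus, erythrocytes and anterior pituitary), 0 were called by limma and 3 had an unadjusted p under 0.05, namely 1 neuronal and 2 endothelial genes. The neuronal gene, Gad1, stood at -0.0385 (limma adjusted p = 0.53). The endothelial gene with the smallest p, Ocln, was higher in Paip1-low mice, at 0.0135 (limma adjusted p = 0.53). The mean level of the neuronal list ran from -0.134 through -0.00256 to 0.104 in Paip1-low mice, against -0.163, 0.0105 and 0.109 in Paip1-high mice. The pituitary list, the most variable, ran from -0.822 through -0.566 to 0.609, against -0.926, -0.563 and 0.579. The erythrocyte list ran from -0.348 through -0.116 to 0.315, against -0.43, -0.0665 and 0.436. Differences were below 0 for 6 of 6 neuronal, 5 of 5 erythrocyte, 4 of 6 pituitary and 5 of 7 endothelial markers, with medians of -0.00724, -0.0255, -0.0341 and -0.00848. Below 0 were also 5 of 8 astrocyte and 4 of 9 oligodendrocyte markers, but 2 of 8 microglial and 1 of 6 choroid plexus markers. Beside a median of 0.000746 over all probes, those of these 4 lists lay between -0.00235 and 0.00503. Their part in the results was not tested. Arrays of both groups had a like spread over probes, with a median SD of 0.0684 in Paip1-low and 0.0669 in Paip1-high mice, and no pair of arrays correlated above 0.795 over all probes.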

How the data were processed

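Per the labels' protocols, RNA of each brain was cleaned on columns with a DNase step, amplified with aminoallyl labelling and hybridised to 2-colour arrays with the mouse in Cy3 and the pool in Cy5, with no dye swap. The authors deposited 1 ratio per probe and mouse, read here as log10 of mouse over pool. Neither base nor direction is stated, and image analysis, background correction and normalization were not given in the sources used here. A turned sign would turn every direction reported. No intensities were used. Precision depends on the number of arrays, the spread between mice and the error of single arrays, whose SD over probes ran from 0.0437 to 0.199, and 690 values were limited to -2 or 2.

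Of 23574 probes, 25 missing on more than 5% of arrays were left out, and 252 missing values were set to the probe's mean. GEO's platform annotation and the GRCm38.p6 gene table named 12645 of the 23549 probes kept, for 10835 genes. The most variable probe stood for a gene. The 2 Paip1 probes were described and not tested. Fits used limma 3.58.1 in R 4.3.3 and were tested on simulated data.

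The members, gene lists, tests and naming rule were chosen with earlier results of these data known. Named were Paip1, its 10 nearest measured genes on each side (5 exist after it), the 20 genes of chromosome 13 with the smallest p, up to 15 called genes elsewhere and the leading genes of each list. Alternatives covered covariates, blocks, array scaling and weights, the threshold, missing values and the call rule.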

Additional observations from a re-analysis of the deposited data

Results flagged for a closer look

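The low-minus-high difference of Nnt, the gene before Paip1 on chromosome 13, was not the same in the 2 blocks of mouse numbers. The interaction term was 0.0987 ± 0.018 in log10 ratio (SE; limma adjusted p = 0.00217 over all probes), since Paip1-low mice were lower by 1.37-fold among mice up to 212 and by 1.09-fold among mice from 213. With arrays centred and scaled, and with array weights, the same single probe was called. Mice numbered 213 to 271 had a difference of 0.0327 ± 0.0117, against -0.083 ± 0.0159 in mice from 272, ranges chosen after the values were seen.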

How the results depend on the processing

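The labels put all mice in 1 group with 1 array each. No paired analysis was possible because the groups share no replicate numbers.

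Beside 39 calls in all, 9 were made with mice up to 212 only, 63 with array weights, 121 with Paip1 as a continuous variable and 10 when 1.2-fold was also required. With ranges chosen after the data were seen, 3 were made in mice 213 to 271 only, 10 in mice from 272 only and 24 without mice 213 to 271. On chromosome 13, beside 24, the counts were 3 with mice up to 212, 6 with the 1.2-fold rule, 1 in mice 213 to 271, 6 in mice from 272 and 14 without mice 213 to 271. Off the chromosome, beside the 1 gene Trim25, there were 2 named genes with 5 principal components, 2 without the tenth of arrays with the largest SD and 2 with the low group under -0.2, while array weights gave 10 and the continuous variable 40. By limma 0 were called off the chromosome in mice up to 212 (421 at an unadjusted p under 0.05), with the 1.2-fold rule (1047), in mice 213 to 271 (249) and in mice from 272 (1012). The slope within Paip1-high mice called 5556 probes, and 121 in mice from 213 only. The cause of these changes was not tested, and where mice were left out the number of mice was smaller as well. The block interaction kept its single call.

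On its called probe, no called gene changed direction except Nnt, at 0.0327 in mice 213 to 271. The other probe of Adgrv1 had the opposite sign to its called probe. However, 0 of 24 called named genes kept the call in all 20 alternatives, some with fewer mice or a stricter call rule. With the call rules set aside the count was also 0. Adgrv1 lost its call in 14 of the 20, Trip13 in 10, Plk2 and Thbs4 in 9 each and Tmem267 in 1. Uncalled neighbours near 0 changed sign: Itga2 stood at -0.000307 with the continuous variable, -0.00526 with array weights, -0.0013 with arrays scaled, -0.00445 under the threshold of -0.5, -0.0111 in mice from 213, -0.022 in mice from 272 and -0.00341 without the widest arrays. Mocs2 stood at 0.000705 under the threshold of -0.2, 0.00245 in mice up to 212 and 0.00644 with no covariate. Tcstv3 stood at -0.00202 in mice up to 212 and -0.00375 without the widest arrays, Arl15 at 0.00416 and Tcstv1 at -0.000119 with principal components, BC147527 at -0.00338 in mice 213 to 271 and Emb at 0.000985 in mice from 272. Groups from the second Paip1 probe could not be formed, since 0 mice were under the threshold on it.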
